A study of Mus musculus with 4 samples.

Results

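The genes described here encode 9 lysosomal cathepsins and the pepsin precursor Pga5, 10 of the 18194 genes measured. They are Ctsb, Ctsc, Ctsh, Ctsl, Ctso, Ctss and Ctsz of the papain family, the aspartic proteases Ctsd and Pga5, and the serine carboxypeptidase Ctsa. All probe sets that the array's annotation gives to one of these symbols alone were taken, 22 of the 34958 probe sets with 1 gene symbol, and a gene's value is that of its brightest probe set on average. The group was put together with the day 3 against day 0 results in view, so its differences between the days are given as a description, without a test.

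Total RNA was taken from mouse embryonic stem cells (day 0, 2 samples) and from the epiblast-like tissue they formed by day 3 (2 samples) in SFEBq, a culture in which dissociated stem cells quickly re-form floating aggregates in medium without serum. No genetic change or added agent is named for either group. The labels do not name the cell line or give the replicates as separate cultures, so p-values reflect the spread among these samples alone and that spread may be technical. Time, medium and cell state change together between the groups and cannot be told apart. Biotin-labelled RNA was hybridised to Affymetrix arrays, and values are log2 expression levels from RMA, a method that makes the arrays' distributions alike. A value is compared here between days within a probe set and not between genes.

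Cathepsins are proteases made as inactive precursors, carried to the lysosome and switched on by its acid. There they break down proteins that reach the lysosome from outside the cell or from the cell itself, and cystatins inhibit those of the papain family. Visceral endoderm, the layer that surrounds the early epiblast, is known for taking up and digesting maternal protein in large lysosomes. Pepsinogens are known from the stomach, where acid turns them into pepsin.

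Duplicates were close: across genes, which are not independent, their Pearson correlation was 0.9975 (day 0) and 0.998 (day 3), and 10 and 1 genes lay at least 2-fold apart. Of 6 genes that check the labels, the naive pluripotency genes Nanog, Zfp42 and Klf4 fell, Fgf5 and Otx2 of the epiblast rose, and Pou5f1, shared by both states, was not called. The first quartile of all probe sets lay between 4.30 and 4.33 on the 4 arrays. No detection call was given, so a level near or below it was not separated from background.

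Most of these protease genes stood higher at day 3, and their differences fell into 3 ranges. Ctsh, Ctsc and Pga5 were 29.9-fold to 77.7-fold higher at day 3. Ctsz, Ctsl, Ctsb, Ctsd and Ctsa were 1.62-fold to 3.37-fold higher, and Ctso and Ctss were near or below the first quartile on both days.

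Ctsh, encoding an aminopeptidase of the lysosome, had values of 5.14 and 5.05 at day 0 and 11.26 and 11.48 at day 3. Both day 3 arrays stood far above both day 0 arrays, which were less than 1 log2 unit above the first quartile. The difference was 6.28 ± 0.10 (SE of the fit, n = 2 per day), or 77.7-fold. The SE of the fit also draws on the variance of other genes, so it is not the spread of a gene's own duplicates. A second probe set, whose probes may cross-hybridise, went from 4.39 and 4.90 to 10.70 and 10.86, a difference of 6.13 ± 0.15.

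Ctsc, encoding a dipeptidyl peptidase that activates serine proteases of immune cells by trimming their precursors, had values of 7.62 and 7.61 at day 0 and 12.60 and 12.55 at day 3. The duplicates were nearly identical on both days. The difference was 4.96 ± 0.06 (SE), or 31.2-fold. The other 2 probe sets of Ctsc differed by 1.61 ± 0.12 and 0.96 ± 0.12, both from levels under 3 on the day 0 arrays, below the first quartile. From the mean of its 3 probe sets the difference of Ctsc was 2.51.

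Pga5, the pepsinogen gene, stood at 6.97 and 7.08 at day 0 and at 12.25 and 11.61 at day 3. It had the widest gap between day 3 duplicates among the 10 genes, 0.65. That gap is small beside its difference of 4.90 ± 0.16 (SE), or 29.9-fold. The SD of its own duplicates was 0.08 at day 0 and 0.46 at day 3. Pga5 was read by a single probe set, so no other probe set of it could be compared.

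For the carboxypeptidase gene Ctsz the arrays read 10.81 and 11.10 at day 0 and 12.63 and 12.79 at day 3. Its difference was 1.75 ± 0.09 (SE), or 3.37-fold. The other 2 probe sets of Ctsz gave 1.83 ± 0.07 and 1.81 ± 0.10. All 3 are annotated to 1 transcript and so are not independent readings. All 3 are also of the types that may match several transcripts.

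Ctsl, encoding a major endopeptidase of the lysosome, had values of 12.34 and 12.48 at day 0 and 13.94 and 14.01 at day 3. The days did not overlap, and the difference was 1.57 ± 0.06 (SE), or 2.96-fold. A second probe set near the first quartile, at 3.83 and 4.26 and then 4.34 and 4.65, differed by 0.45 ± 0.17. The brighter probe set is of a type that may match several transcripts. With probe sets of that type left out, the second gave the value of Ctsl, which was not called.

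Ctsb, an endopeptidase that also trims dipeptides from chain ends, had values of 10.18 and 10.26 at day 0 and 11.24 and 11.30 at day 3. Its difference was 1.05 ± 0.06 (SE), or 2.07-fold. Of the other 4 Ctsb probe sets, 3 are annotated to the same transcript and were higher at day 3, by 1.01 ± 0.09, 1.11 ± 0.13 and 0.56 ± 0.14. The remaining probe set, annotated to another sequence, was lower at day 3 on both arrays, with a difference of -0.25 ± 0.12.

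The remaining papain-family members lay near or below the first quartile. Ctso, whose substrates are less well known, had values of 4.47 and 4.37 at day 0 and 4.88 and 4.71 at day 3, a difference of 0.37 ± 0.13 (SE) close to the first quartile. Its second probe set overlapped between days, with a difference of -0.16 ± 0.16. Ctss, the endopeptidase of antigen-presenting cells, was at 3.62 and 3.82 at day 0 and 3.64 and 3.56 at day 3, below the first quartile on every array. Its days overlapped, with a difference of -0.12 ± 0.13.

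Ctsd, the main aspartic protease of the lysosome, had values of 10.50 and 10.34 at day 0 and 11.29 and 11.42 at day 3. The difference was 0.93 ± 0.07 (SE), or 1.91-fold. Ctsd was read by a single probe set, of a type that may match several transcripts. Ctsa, the carboxypeptidase that also shields the lysosomal sialidase and beta-galactosidase in a complex, was at 9.85 and 9.93 and then at 10.54 and 10.65. Its difference was 0.70 ± 0.07, or 1.62-fold, and its other probe set, annotated to another sequence, read 6.71 and 6.50 and then 6.34 and 6.40, a difference of -0.24 ± 0.12.

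**Figure D1:**
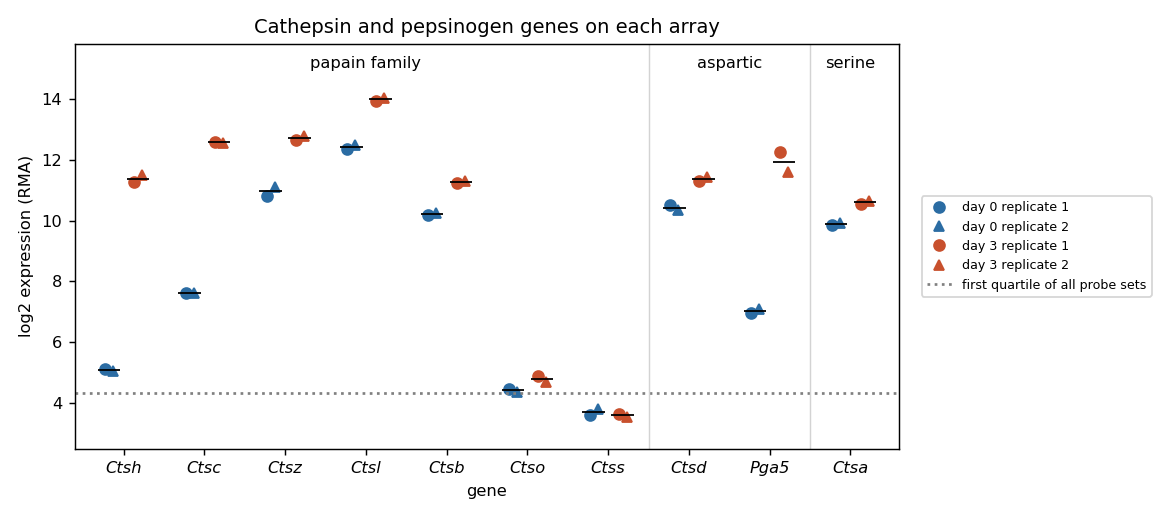
Log2 expression of the 10 genes on each of the 4 arrays, with day 0 in blue, day 3 in red, circles for replicate 1, triangles for replicate 2 and a bar at each day's mean (n = 2). Ctsh, Ctsc and Pga5 lie 4.90 to 6.28 log2 units higher at day 3, while Ctso and Ctss lie near or below the first quartile of all probe sets (dotted line).

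Across all 22 probe sets, 18 were higher at day 3 without overlap between days, 2 were lower without overlap and 2 overlapped. Over the 34958 probe sets with 1 symbol, 32.5% were higher without overlap and 33.2% lower. Both probe sets that were lower without overlap, of Ctsa and Ctsb, are annotated to other sequences than the brightest probe set of their gene. The spread within a gene was largest for Ctsc and smallest for Ctsz.

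**Figure D2:**
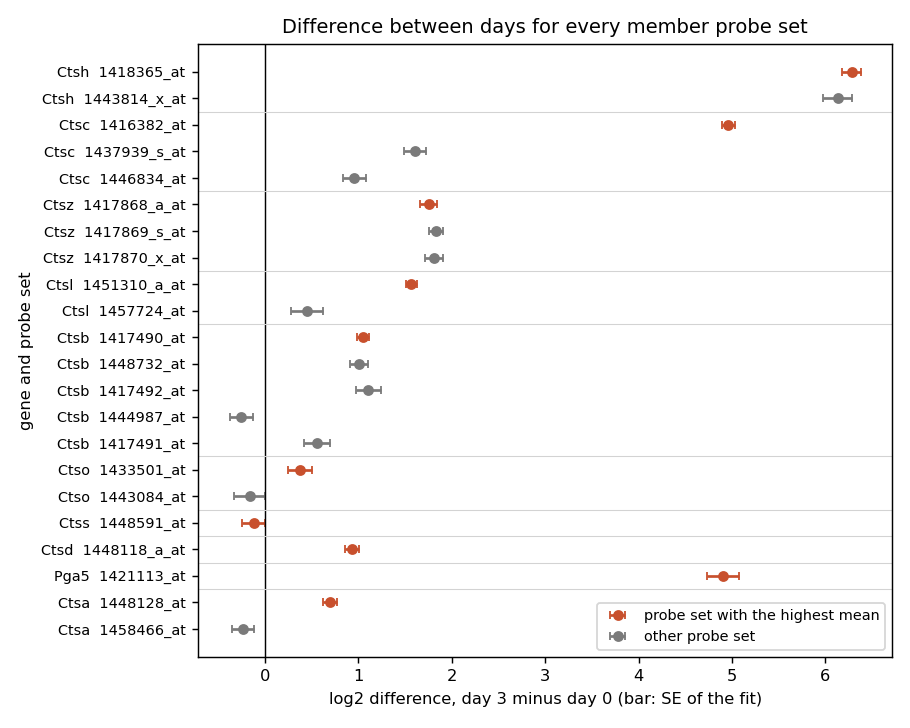
Difference between days, day 3 minus day 0 on the log2 scale, for each of the 22 probe sets with the SE of the fit over all probe sets as bars, red for the probe set with the highest mean of its gene and grey for the others. The 2 probe sets of Ctsh and the 3 of Ctsz lie close together, while those of Ctsc spread from 0.96 to 4.96.

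The upstream sequences of some members were searched for 2 kinds of short motif, and a link to the difference between days was not tested. RefSeq start regions of build GRCm38.p6 were matched for 7 of the 10 genes, with 8 regions, since Ctsa has 2, and Ctsb, Ctsh and Pga5 were not among them. The 250 bases before each start were searched on both strands for CACGTG, the core of the element bound by the lysosomal regulator TFEB, for that element's full form (the CLEAR consensus, which contains the core), and for the GATA factor motifs AGATAA and TGATAA. The core was found in 3 of the 8 regions, those of Ctsd, Ctsl and 1 of the Ctsa starts, against 6.02% of 32851 regions of the same length. The Ctsl region and that Ctsa region lay wholly inside the annotated gene, so they are not shown. The full form was in none of the 8 and in 0.24% of all regions. Both GATA motifs were found upstream of Ctsz and of no other matched member, against 9.99% of all regions for AGATAA and 7.94% for TGATAA. A match is a description of the letters and not a site.

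The upstream letters of 3 members are shown 5′ to 3′ in lower case with the matched motifs in capitals. Ctsd is on chr7:142387828-142388077 and Ctsz on chr2:174439040-174439289, both on the minus strand, each reaching up to the base before the start, and both are shown for their matches. Ctsc is on chr7:88277835-88278023, plus strand, without the last 61 bases, which lie in the annotated gene, and is shown as the member of largest difference with a matched region.
Ctsd: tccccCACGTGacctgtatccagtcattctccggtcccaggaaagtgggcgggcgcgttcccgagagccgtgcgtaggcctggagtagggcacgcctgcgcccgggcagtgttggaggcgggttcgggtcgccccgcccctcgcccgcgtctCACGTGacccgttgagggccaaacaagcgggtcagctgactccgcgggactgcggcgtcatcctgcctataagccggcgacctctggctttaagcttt
Ctsz: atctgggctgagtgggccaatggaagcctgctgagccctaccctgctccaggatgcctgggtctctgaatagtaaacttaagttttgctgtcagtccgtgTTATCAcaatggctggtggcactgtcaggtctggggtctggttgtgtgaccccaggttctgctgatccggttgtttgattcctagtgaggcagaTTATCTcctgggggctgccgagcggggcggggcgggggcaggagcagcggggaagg
Ctsc: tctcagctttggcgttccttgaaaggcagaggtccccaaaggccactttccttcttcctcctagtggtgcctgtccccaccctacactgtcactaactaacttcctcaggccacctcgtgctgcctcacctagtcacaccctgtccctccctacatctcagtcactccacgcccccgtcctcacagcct

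In Ctsd the 2 matches begin 245 and 98 bases before the start. In Ctsz the TGATAA match, read on the other strand as TTATCA, begins 150 bases before the start, and the AGATAA match, read as TTATCT, begins 56 bases before it. Ctsc, with the largest difference among the 7 matched genes, has no match in its 250 bases.

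The papain family and its aspartic and serine relatives on the array include further genes, taken from lists drawn up by function. Of 14 other papain-family genes, 0 rose, 1 fell and 13 were not called, with a median difference of 0.05 against 0.01 for all genes. They are what was left after the members were picked with these results in view, so they are no independent comparison. In the fit over all genes, 20.9% were called higher and 21.4% lower. Of these 14 genes, 9 lay below the first quartile on all 4 arrays, among them most of the placental cathepsins. Ctsj, one of these placental genes, differed by 0.39 ± 0.17 (SE, adjusted p = 0.09), and this became 0.65 and was called without day 3 replicate 2 (adjusted p = 0.012). Ctsf, a broadly expressed lysosomal cathepsin gene, had a difference of 0.13 ± 0.10 (adjusted p = 0.36). Ctsw, known from cytotoxic lymphocytes, differed by -0.32 ± 0.16 (adjusted p = 0.14), and by -0.56 without day 0 replicate 1, when it was called (adjusted p = 0.005). Tinagl1, an extracellular relative without protease activity, fell by 0.45 ± 0.10 (adjusted p = 0.0043), a call lost without day 3 replicate 1 (adjusted p = 0.052).

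Among 9 aspartic and serine relatives 2 rose and 0 fell. Bace2, a membrane-bound aspartic protease, rose by 1.08 ± 0.13 (SE, adjusted p = 7.1e-05), and its relative Bace1 by 0.45 ± 0.09 (adjusted p = 0.003), a call lost when its probe sets were averaged (0.25, adjusted p = 0.074). Of the 5 probe sets of Bace2, 4 were higher at day 3, by 0.49 to 1.29, and 1 differed by -0.20. That last one gave the gene's value when probe sets that may match several transcripts were left out, and it was not called (adjusted p = 0.34). Scpep1, a carboxypeptidase relative of Ctsa, was at 11.90 and 11.84 at day 0 and 12.16 and 11.93 at day 3 (difference 0.17 ± 0.07, adjusted p = 0.091). It was called without day 3 replicate 2, with a difference of 0.29 (adjusted p = 0.019). Napsa, an aspartic protease of lung and kidney, differed by -0.36 ± 0.17 (adjusted p = 0.13), and by -0.64 without day 3 replicate 2, when it was called (adjusted p = 0.019). Pgc, the other pepsinogen gene listed, was at 5.33 and 5.50 at day 0 and 5.44 and 5.47 at day 3 (adjusted p = 0.85). Its days overlapped, unlike those of Pga5.

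Of 15 cystatins and related inhibitors, 2 rose and 1 fell. Cst3, encoding the secreted cystatin C, rose from 9.77 and 9.77 to 11.01 and 11.19, by 1.33 ± 0.07 (SE, adjusted p = 1.6e-07). Cstb, encoding the cytosolic cystatin B, rose from 12.19 and 12.07 to 12.86 and 12.95, by 0.78 ± 0.06 (adjusted p = 1.9e-06). Both rises were called while 12 other inhibitor genes were not, and 7 of the 15 lay below the first quartile on all arrays. Ahsg, a serum protein of the cystatin superfamily, fell by 0.51 ± 0.13 (adjusted p = 0.0083), a call lost without day 3 replicate 2 (adjusted p = 0.09).

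Among genes that carry proteases to the lysosome, 8 of 15 were called higher, 1 was called lower and 6 were not called, with a median of 0.29. Gnptab, which builds the mannose 6-phosphate tag of lysosomal enzymes, rose by 0.96 ± 0.07 (SE, adjusted p = 1.8e-06), and Gnptg, its partner subunit, by 0.56 ± 0.13 (adjusted p = 0.0056), a call lost without day 3 replicate 2 (adjusted p = 0.088). Sort1, a sorting receptor that can bypass this tag, rose by 1.18 ± 0.09 (adjusted p = 2.6e-06). Its other probe sets differed by 0.51 and 0.33, and the smaller of these was not called in the fit over all probe sets (adjusted p = 0.056). The adaptor gene Gga2 and the retromer gene Vps29 rose by 0.36 ± 0.05 (adjusted p = 0.00024) and 0.32 ± 0.05 (adjusted p = 0.00064). Averaged over its probe sets Vps29 was not called (0.09, adjusted p = 0.45), and the median of the list so averaged was also 0.09. The gene called lower was Cln8, with a difference of -0.25, a call that was lost without day 0 replicate 1 and without day 3 replicate 1. The call was also lost without the intensity trend, after renewed quantile normalization and from the mean of probe sets. The 2 mannose 6-phosphate receptor genes, looked at after their values were seen, were not alike. Igf2r rose by 0.48 ± 0.10 (adjusted p = 0.0025), while M6pr differed by -0.03 ± 0.07 (adjusted p = 0.8). Each value is from the brighter of 2 probe sets of its gene, and the other probe set is not described here. A test of the difference between these 2 genes was not run.

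Among other lysosomal proteases and peptide-trimming enzymes, 7 of 8 rose and 0 fell, with a median of 0.68. Lgmn, encoding legumain, which cuts after asparagine and processes several cathepsins, went from 8.34 and 8.50 to 11.07 and 11.30. Its rise of 2.76 ± 0.09 (SE, adjusted p = 4.1e-09), or 6.79-fold, was the largest of this list. Tpp1, a tripeptidyl peptidase, rose by 0.84 ± 0.07 (adjusted p = 5.4e-06), and Aga, which trims glycosylated asparagine, by 0.81 ± 0.10 (adjusted p = 5.4e-05).

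Of 27 other lysosomal hydrolases and activators, 17 rose, 2 fell and 8 were not called, with a median of 0.41. The sialidase gene Neu1, whose product depends on Ctsa, rose from 6.21 and 6.42 to 8.59 and 8.91, by 2.44 ± 0.13 (SE, adjusted p = 9.4e-08). Its other 2 probe sets rose less, by 0.65 and 0.49. Hexa, a hexosaminidase subunit gene, rose by 1.34 ± 0.06 (adjusted p = 3.5e-08), and Npc2, a cholesterol carrier gene, by 1.06 ± 0.05 (adjusted p = 9.1e-08). Manba, encoding beta-mannosidase, fell from 11.83 and 11.97 to 9.20 and 9.13, a difference of -2.73 ± 0.07 (adjusted p = 8.8e-10). Glb1, the beta-galactosidase gene of the Ctsa complex, which was picked out after its values were seen, fell from 10.36 and 10.51 to 9.26 and 9.40, a difference of -1.10 ± 0.08 (adjusted p = 1.2e-06). Genes of 1 complex thus went different ways, with Ctsa and Neu1 higher and Glb1 lower at day 3.

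Lysosomal membrane protein genes were called higher in 11 of 14 listed cases and lower in 1, with a median of 0.53. Laptm5 and Cd68, also genes of lysosomal membrane proteins, were listed with macrophage markers and are not in these counts. Both were called lower, with differences of -3.02 and -1.29. Lamp2, a major membrane glycoprotein of the lysosome, rose by 1.79 ± 0.06 (SE, adjusted p = 5.8e-09), and its 4 probe sets rose by 0.62 to 1.87. The cholesterol exporter gene Npc1 rose by 1.37 ± 0.08 (adjusted p = 1.5e-07) and the sialic acid exporter gene Slc17a5 by 1.33 ± 0.08 (adjusted p = 4.3e-07). Lamp1 (0.43 ± 0.06) and Laptm4b (0.72 ± 0.05) also rose. The transporter gene Mfsd8 fell by 0.64 ± 0.13 (adjusted p = 0.0023).

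Over all genes 20.9% were called higher and 21.4% lower. Among the 9097 genes above the median level of all genes, these shares were 29% and 33.7% in the same fit. In the lists of sorting genes, proteases, hydrolases and membrane proteins, 8 of 15, 7 of 8, 17 of 27 and 11 of 14 were called higher. The lists were counted whole, with genes below the median level included, and were not tested. The median of the 10 protease genes was 1.31. The fit called 9 of the 10 higher and did not call Ctss, while it called 42.3% of all genes in either direction, and nothing is read from this count, since the group was chosen on the same contrast. Both day 3 arrays lay above both day 0 arrays for the same 9 genes and for 35.3% of all genes. Ctso was not called without day 0 replicate 2 or either day 3 array, nor after renewed quantile normalization, after median centring or from the mean of its probe sets.

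**Figure D3:**
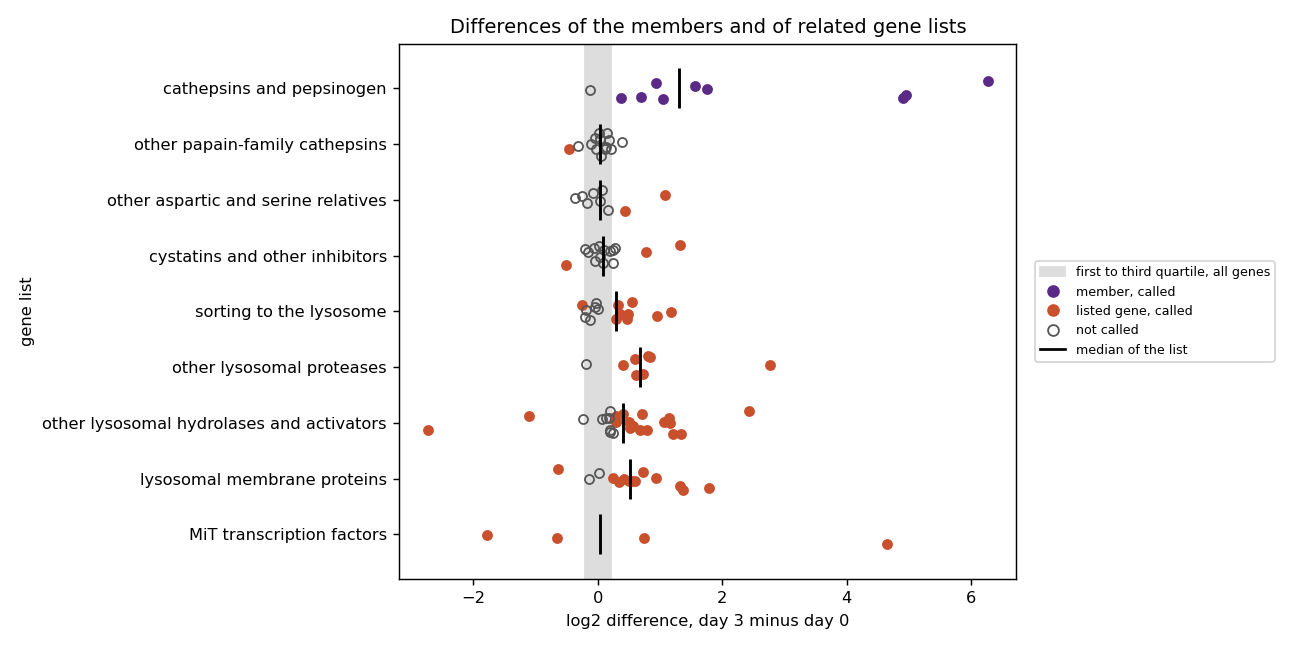
Log2 difference between days, day 3 minus day 0, for each gene of the members and of 8 lists of related genes, with filled points for genes called at an adjusted p under 0.05, open points for the others, a bar at each list's median and grey from the first to the third quartile of all genes. The other papain-family genes lie around 0 (median 0.05), while the lists of lysosomal proteases, hydrolases and membrane proteins lie to the right, with medians of 0.41 to 0.68. The members were picked with these differences in view.

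The 4 MiT transcription factors, a family that includes the lysosomal regulator TFEB, went different ways. Tfec rose from 4.51 and 5.28 to 9.43 and 9.66, by 4.65 ± 0.20 (SE, adjusted p = 2.9e-08), or 25.1-fold. Its day 0 duplicates lay further apart than its day 3 duplicates. Tfe3 rose from 9.47 and 9.45 to 10.16 and 10.26, by 0.75 ± 0.07 (adjusted p = 8.4e-06). Tfeb fell by 0.66 ± 0.10 (adjusted p = 0.0003) and Mitf fell by 1.77 ± 0.13 (adjusted p = 1.5e-06). The second probe set of Mitf, below the first quartile on average on both days, differed by -0.05 and was not called.

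Genes with the nearest profile were sought by the Euclidean distance between log2 values centred on each gene's own mean over the 4 arrays, which mostly finds differences of like size. For Ctsh they were Clic6 (distance 0.205, difference 6.21), Cubn (0.426, 5.86) and Slc39a8 (0.518, 5.85). For Ctsc they were Myb (0.191, 4.77), Pim2 (0.268, 4.70) and Maf (0.337, 4.70). For Pga5 they were Pim2 (0.435, 4.70), Ctsc (0.44, 4.96) and Cldn6 (0.446, 4.56). Cubn, an endocytic receptor, is also among the visceral endoderm markers.

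Marker lists of other cell types were read on the same arrays. In bulk samples fewer cells of a type and less RNA per cell cannot be told apart. Of 19 visceral endoderm markers, 18 rose, 0 fell and Gata6 was not called. Their mean log2 level was 7.12 to 7.22 on the day 0 arrays and 9.65 to 9.77 on the day 3 arrays, and none lay below the first quartile on all arrays. Apob (6.79 ± 0.12), Cubn (5.86 ± 0.08) and Ttr (4.32 ± 0.09) rose, and other probe sets of these genes gave other sizes. The other 3 probe sets of Ttr rose by 8.63 to 8.97, and the second of Apob rose by 1.09 and that of Cubn by 5.67. The mean log2 level of the 10 protease genes went from 8.15 and 8.20 to 10.43 and 10.41. The part of visceral endoderm in the protease differences was not tested.

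Macrophages, which are rich in Ctss and other cathepsins, were read from 15 markers, of which 0 rose and 2 fell. The list's mean log2 level was 5.13 to 5.20 at day 0 and 4.84 to 4.91 at day 3, while its median difference was -0.04, and the 2 genes that fell, Laptm5 and Cd68, made up most of the drop in the mean. RMA gives no value of 0, but 5 of the 15, among them the leukocyte gene Ptprc (3.52 and 3.67 on average at day 0 and day 3), lay below the first quartile on all arrays. Laptm5 fell by 3.02 ± 0.11 (SE, adjusted p = 1.1e-08) and Cd68 fell by 1.29 ± 0.13 (adjusted p = 1.6e-05), both genes of lysosomal membrane proteins. The other 4 probe sets of Laptm5 differed by -1.24, -0.74, -0.64 and 0.13. The last is the only one left without probe sets that may match several transcripts, and it was not called (adjusted p = 0.42). Cd14 differed by -0.31 ± 0.12 (adjusted p = 0.073), and was called without the intensity trend in the fit (adjusted p = 0.04).

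Of 9 gastric markers 1 rose and 1 fell. The list was drawn up for chief and parietal cells, which would stand beside a pepsinogen in the stomach. It also holds Gkn1, Gkn2, Tff1 and Tff2, genes of mucous cells of the stomach, so it does not read chief and parietal cells alone. The list's mean on the day 3 arrays, 6.07 and 6.13, lay between those of the day 0 arrays, of which the higher was 6.15. The mucosal gene Gkn2 rose by 0.63 ± 0.16 (SE, adjusted p = 0.0079), a call lost without day 3 replicate 1 (adjusted p = 0.11), Bhlha15 fell by 0.83 ± 0.14 (adjusted p = 0.0006), and Gkn1 differed by 0.17 ± 0.12 (adjusted p = 0.29). Of 11 fibroblast markers 3 rose and 2 fell, with means of 5.28 to 5.32 and 5.38 to 5.44. Thy1 rose by 1.82 ± 0.10, while Tagln (-1.31 ± 0.11) and Acta2 (-1.18 ± 0.11) fell. The other 2 probe sets of Acta2, with means below the first quartile on both days, differed by 0.21 and 0.30. Without probe sets that may match several transcripts Acta2 differed by 0.21 and was not called (adjusted p = 0.28), and from the mean of its probe sets by -0.22 (adjusted p = 0.11).

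**Figure D4:**
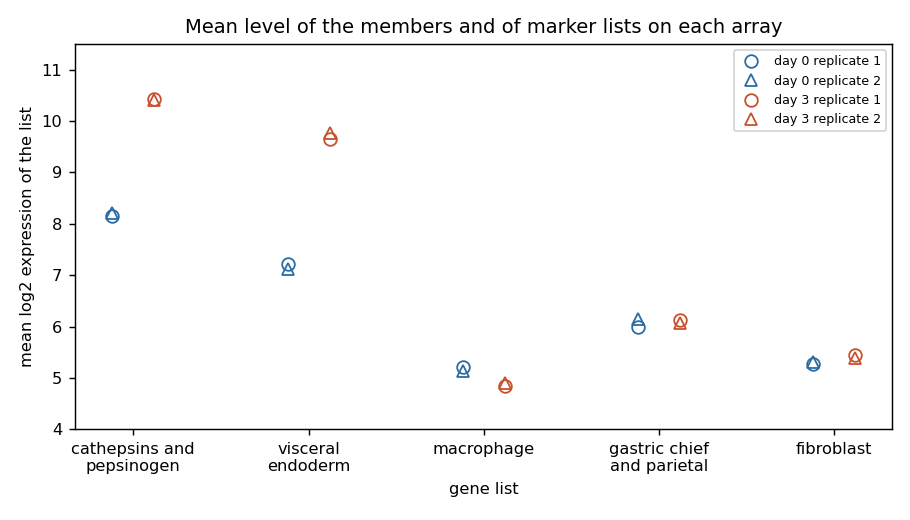
Mean log2 expression of the 10 protease genes and of 4 marker lists on each of the 4 arrays, day 0 in blue and day 3 in red, with circles for replicate 1 and triangles for replicate 2. The proteases and the visceral endoderm markers lie higher on both day 3 arrays, while the mean of the macrophage list lies lower at day 3 (median difference of its genes -0.04) and the gastric list overlaps between days.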

How the data were processed

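RNA of 4 samples, 2 at day 0 and 2 at day 3, was measured on arrays. The authors deposited log2 values, 1 per probe set and array, made with RMA in R 2.13.0 per the submitters' processing notes. Further settings are not given in the sources used here. RMA makes the distributions of the arrays alike and compresses differences of dim probe sets, and the number of arrays limits the precision. Of 45101 probe sets, 34958 had 1 gene symbol, 932 several and 9211 none, and only those with 1 symbol were used for genes. Each of 18194 genes took its probe set with the highest mean. Days were compared with limma 3.58.1 in R 4.3.3 (lmFit, then eBayes with an intensity trend, no covariate), two-sided, with Benjamini-Hochberg adjustment over all genes and a call at an adjusted p under 0.05. SE is the fit's, from a variance that eBayes moderates across genes (2 residual and a median of 8.02 prior degrees of freedom). The procedure was tested on simulated data. Promoters came from RefSeq, GRCm38.p6, searched on both strands.

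The members and lists were chosen with earlier results of these data known. Named were all members, the 3 largest differences of each list and the 2 highest means of each pathway list, 6 label check genes, and for each of Ctsh, Ctsc and Pga5 the 3 nearest profiles. Pgc, Igf2r, M6pr, Cln8, Glb1, Mfsd8, Gata6 and Ptprc were added after their values were seen. Genes listed but without a probe set of 1 symbol were not analysed here. Alternatives were other variance models, renewed quantile normalization, median centring, dim genes left out, averaging over the probe sets of a gene, probe sets matching several transcripts left out, a replicate block and each array left out.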

Additional observations from a re-analysis of the deposited data

How the results depend on the processing

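The median difference of the protease genes, 1.31, was 1.66 for the 8 genes above the median level and 0.97 when probe sets were averaged by gene. It was 0.88 when probe sets that may match several transcripts were left out, where 8 genes had a value and Ctsd and Ctsz had none. With 1 array left out the median was 1.26 to 1.37. Apart from the arrays left out, these shifts follow from which genes and probe sets enter. Fewer genes entered 2 of the settings. Ctsl went from 1.57 to 1.01 on averaging, and to 0.45 without probe sets that may match several transcripts. Over all genes 3804 were called higher and 3901 lower, and with every probe set tested 5967 and 6641 probe sets were. For the other papain-family genes 0 to 1 were higher and 0 to 2 lower with 1 array left out. For the aspartic and serine relatives 1 was higher among genes above the median level, on averaging probe sets and on leaving out those matching several transcripts, and 0 to 1 lower with 1 array left out. Without such probe sets 1 inhibitor was higher and 0 lower and 1 MiT factor was higher, with a median of -0.66 for that family. Among genes above the median level 0 inhibitors and 0 membrane protein genes were lower, and with 1 array left out 0 to 1 inhibitors and 1 to 2 membrane protein genes were. For sorting genes, 0 were lower without the intensity trend, after renewed quantile normalization and from the mean of probe sets, 2 after median centring, and 0 to 1 with 1 array left out. Without probe sets matching several transcripts, the differences of Acta2 (0.21), Bace2 (-0.20) and Laptm5 (0.13) turned in sign and were not called. Each then rested on 1 substitute probe set, with that of Acta2 below the first quartile, while 4 of the 5 Bace2 probe sets were higher and 4 of the 5 Laptm5 probe sets lower at day 3. In the same setting Ctsl differed by 0.45 and was not called. From the mean of probe sets the difference was 0.69 for Ctsb, 1.01 for Ctsl, 0.23 for Ctsa, 0.11 for Ctso and 2.51 for Ctsc. The labels do not say what the replicate numbers share, and the deviations of same-numbered arrays correlated at -0.017 across genes, so the numbers were not taken as pairs. With the replicate number as a block, the median of the protease genes was 1.31, as a block leaves differences in a balanced design unchanged. Scpep1 was called with the block (0.17, adjusted p = 0.04). No other gene named by the rule changed its call with the block.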
